A study of Mus musculus with 16 samples.

Results

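In mouse liver, 10 genes of hepatic stellate cells and of the extracellular matrix were followed by name, of 46078 in the count table. Of these, 4 encode collagen chains (Col1a1, Col1a2, Col3a1 and Col4a1), 3 encode small leucine-rich proteoglycans (Bgn, Dcn and Lum), 1 encodes a protease inhibitor (Timp1) and 2 encode cytoskeletal proteins (Acta2 and Des). The genes are a list of symbols, with no threshold on measured values, and it was drawn up with earlier results of these data known. Liver poly(A) RNA was sequenced from obese C57BL/6 mice aged 22 weeks, all with diet-induced obesity and fatty livers, in 4 groups of 4 libraries. The saline group received vehicle. The Dicretin group received a co-agonist of the receptors for GLP-1 (glucagon-like peptide 1) and glucagon. The Semaglutide group received an agonist of the GLP-1 receptor alone, and the calorie restriction group was fed less to reach an equivalent loss of weight. The labels and design text give no doses, durations or sex. Libraries are named by group and by the number in the labels, and no label states pooling or separate housing, so p-values measure the spread between these samples.

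Hepatic stellate cells lie between the hepatocytes and the sinusoids and store vitamin A. In an injured liver they can turn into contractile myofibroblasts that make smooth muscle actin and secrete the fibrillar collagens of scar tissue, and transforming growth factor beta is the best known signal for this change. Fibroblasts around the portal tracts, vascular smooth muscle and, for some matrix genes, endothelial cells express overlapping sets of genes, so that whole-liver RNA mixes several sources.

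Values are CPM, a gene's share of a library's counts brought to one common library size, scaled between libraries by the trimmed mean of M values (TMM). Differences are log2 fold changes with their standard error (SE) from an edgeR quasi-likelihood fit to all 16 libraries. The threshold for a call was 0.05 on the p adjusted by Benjamini and Hochberg over the 12910 genes with enough counts to test. Library totals were 12143829 to 18755393 counts. The summed CPM of 9 hepatocyte marker genes was 91410 to 160600 over all libraries, and the stellate cell gene Lrat, which encodes the enzyme that esterifies vitamin A, was at 9.45 to 23.6 CPM in every library. In 3 libraries, genes typical of other tissues were high. Semaglutide 15 had a summed CPM of 887 over 8 skeletal muscle genes, against 0.376 to 1.12 in its group, and Acta1, Myh2 and Tnnt3 had no count in the 3 other libraries of that group. Dicretin 64 had a summed CPM of 1528 over 9 genes of the exocrine pancreas, against at most 5.78 in any other library. Saline 78 had a summed CPM of 20.1 over 8 smooth muscle genes, against 5.65 to 9.72 in its group, and the bile duct keratin Krt19 at 19.4 CPM, against 0.953 to 1.07. Values without these libraries are given beside the results whose call, sign or size they change. In whole liver, fewer cells of a type and less RNA per cell cannot be told apart.

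Compared between genes per kilobase of the principal transcript, the proteoglycans Dcn and Bgn were by far the most abundant members, at 105 ± 17.5 and 41.9 ± 10.5 CPM per kilobase (SD, n = 4) in saline. Col3a1 came next at 6.68 ± 3.09. Col4a1, Lum, Col1a2, Acta2, Col1a1 and Des followed at 3.88 ± 1.64, 3.58 ± 0.915, 3.20 ± 1.27, 2.90 ± 3.34, 2.63 ± 1.68 and 2.23 ± 0.741 CPM per kilobase, and neighbours within this run did not differ beyond their spread. Timp1 was lowest at 0.837 ± 0.262. Dividing by the union of all annotated exons kept Dcn (31.5) and Bgn (16.6) on top and placed Col1a2 below Des (1.38 against 1.79). In the Dicretin group Dcn stood at 91.3 ± 16.2 and Bgn at 24.6 ± 5.99 CPM per kilobase of the principal transcript, and Col3a1 at 2.34 ± 1.29.

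**Figure D1:**
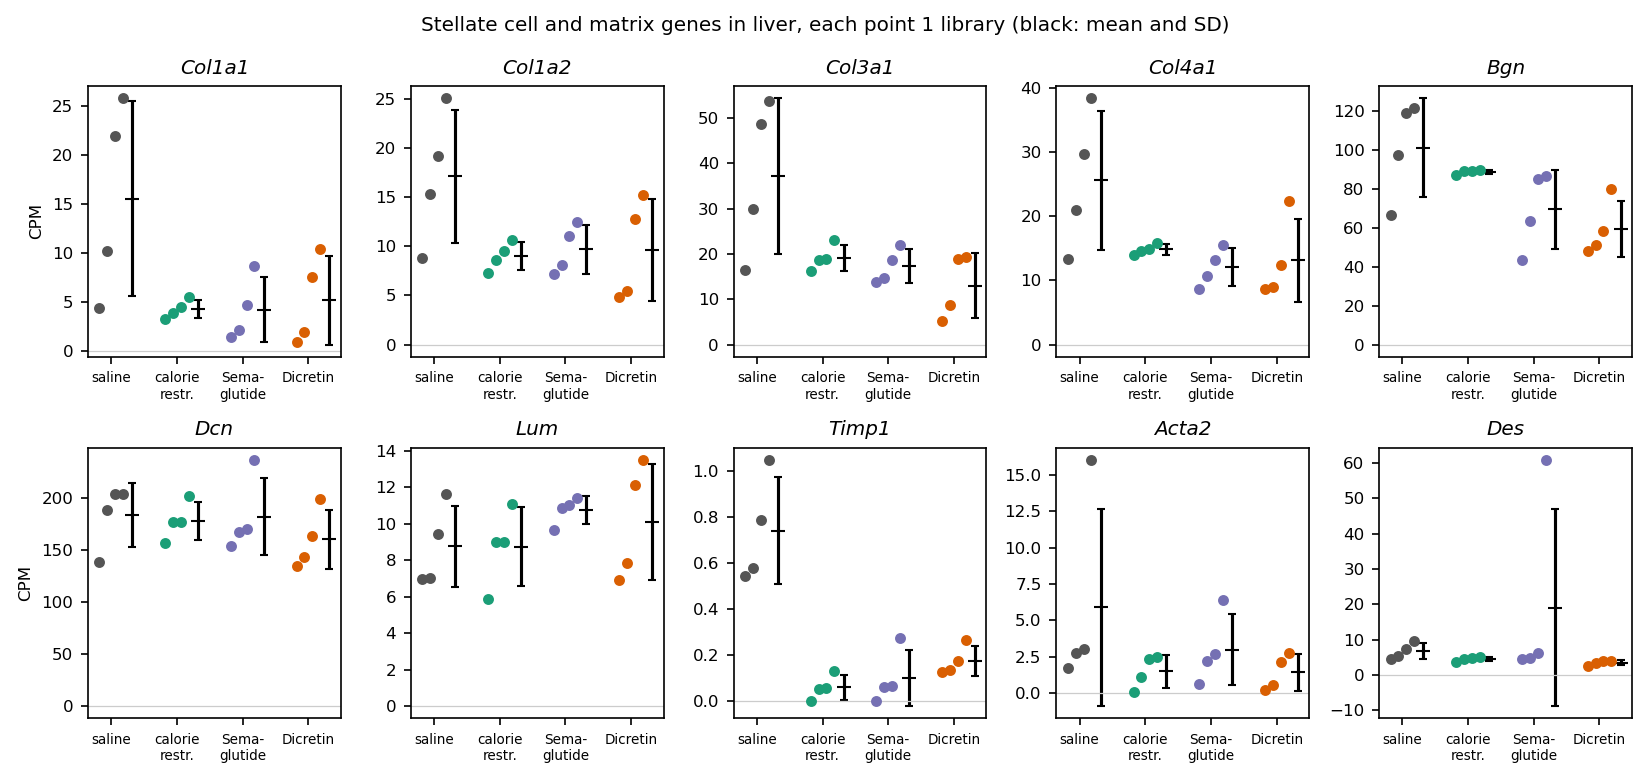
CPM of the 10 genes in every library (coloured points, 4 per group, placed in rising order within a group) with the group mean and SD in black; each panel has its own linear axis. The saline points of the 4 collagens run from low to high within the group, Timp1 is higher in all 4 saline libraries than in any other library, and a single point sets the mean of Acta2 in saline and of Des in Semaglutide.

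Of the 10 genes, 9 had enough counts to test, and Timp1 did not. Against saline, 3 of the 9 (33.3%) were lower with Dicretin, Col3a1, Col4a1 and Bgn, and 0 were higher. Over all genes tested 36.7% passed in this comparison and 19.2% were lower, so the share of members that passed was close to that of all genes. Their median log2 fold change was -0.96, against -0.01 for all genes. Against saline, 0 of 9 passed with Semaglutide (4.18% of all genes passed) and 0 of 9 with calorie restriction (7.53% of all genes), with medians of -0.82 and -0.79. The unadjusted p was under 0.05 for 6 members with Semaglutide and for 5 with calorie restriction. The 6 include Des, which was higher with Semaglutide (1.51), with Semaglutide 15 at 60.96 CPM against 4.57 to 6.15 CPM in its group. The 5 include Acta2, at -1.91 with calorie restriction, with saline 78 at 16.05 CPM against 1.742 to 3.062 CPM in its group. Values without these libraries are given below for each gene, and the share of all genes under this p is not given. DESeq2 called 2 members with Semaglutide and 0 with calorie restriction, and limma-voom called 0 in both. The shares of all genes called by these tools are not given here or below, and the shares above are from edgeR. In the test of any difference among the 4 groups 5 of 9 passed (55.6%, against 43.7% of all genes), namely Col1a1, Col3a1, Col4a1, Bgn and Des. Col1a1 passed narrowly (adjusted p = 0.0494, edgeR). The only pair of groups with a call for Des, Dicretin against Semaglutide, lost it without Semaglutide 15, as given below. The count of members that passed this test changed with single libraries left out, as given in the last section. The 3 comparisons share the saline libraries.

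**Figure D2:**
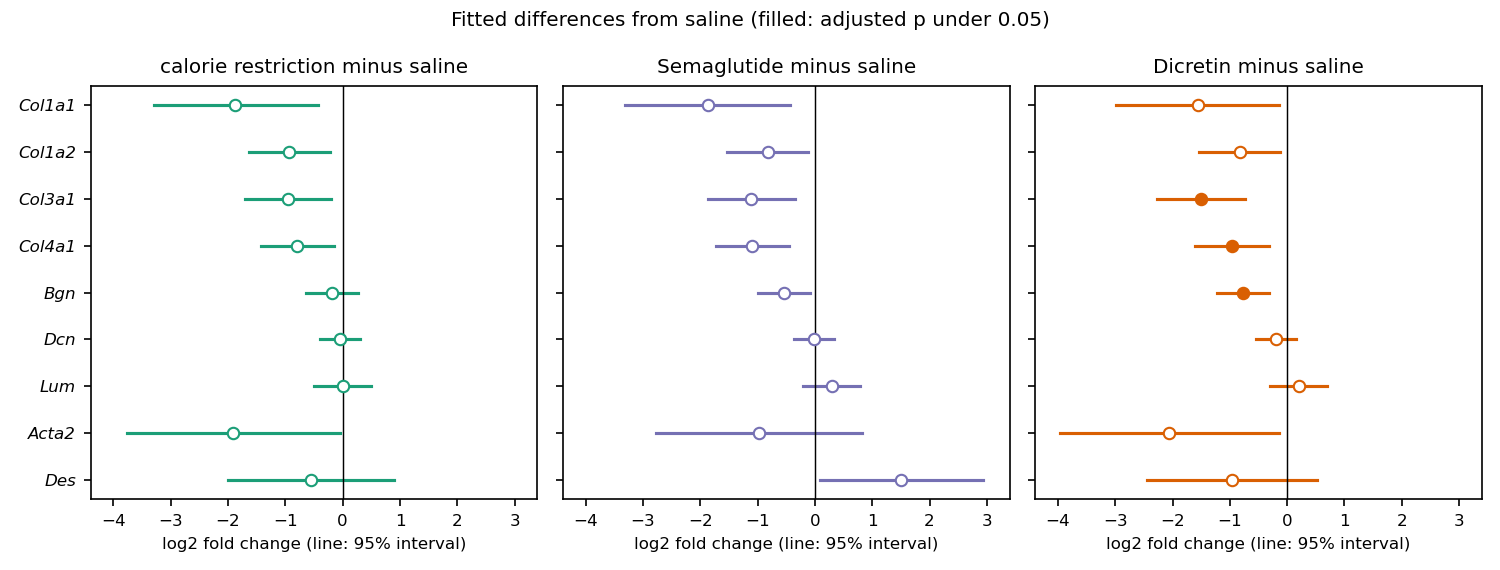
Fitted log2 fold changes from saline (x axis) of the 9 tested genes with 95% intervals; filled points passed at an adjusted p under 0.05. In the Dicretin panel Col3a1, Col4a1 and Bgn are filled, no point is filled in the other panels, and the points of Dcn and Lum lie near 0 in all 3.

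Col1a1 and Col1a2 encode the 2 chains of type I collagen, the main fibrillar collagen of scar tissue, and Col3a1 encodes type III collagen, which forms fibrils with it. Col1a1 stood at 21.9, 25.8, 10.2 and 4.38 CPM in saline 35, 50, 73 and 78 and at 7.61, 10.4, 0.949 and 1.91 CPM in Dicretin 14, 23, 64 and 65. It was at 1.43, 4.76, 8.68 and 2.13 CPM in Semaglutide 11, 15, 31 and 51 and at 3.27, 4.51, 5.50 and 3.87 CPM in calorie restriction 7, 8, 52 and 79. Saline 78 lay among the treated libraries and the 3 other saline libraries lay above nearly all of them, Dicretin 23 being the exception. The log2 fold change was -1.56 ± 0.67 with Dicretin (adjusted p = 0.0768, edgeR), -1.87 ± 0.68 with Semaglutide (adjusted p = 0.139) and -1.87 ± 0.67 with calorie restriction (adjusted p = 0.106), none of which passed. Without saline 78 the Dicretin value was -1.87 (adjusted p = 0.0353, edgeR), and without saline 78, Semaglutide 15 and Dicretin 64 together it was -1.51 (adjusted p = 0.0613). The Dicretin value also passed without Dicretin 23 (-2.10, adjusted p = 0.0361, edgeR) and with limma-voom (-1.82, adjusted p = 0.0377). With calorie restriction Col1a1 had -2.17 without saline 78 (adjusted p = 0.0648, edgeR) and passed without the 3 libraries (-2.16, adjusted p = 0.0327), and with Semaglutide it had -2.18 (adjusted p = 0.079) and -2.23 (adjusted p = 0.0577) in these settings.

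Col1a2 stood at 19.2, 25.1, 15.3 and 8.85 CPM in saline 35, 50, 73 and 78, at 12.8, 15.2, 4.88 and 5.46 CPM in the 4 Dicretin libraries in the order given for Col1a1, at 7.20, 11.1, 12.4 and 8.08 CPM in those of Semaglutide and at 8.64, 9.55, 10.6 and 7.28 CPM in those of calorie restriction. The pattern was that of its partner chain, with saline 78 at the level of the treated groups. The log2 fold change was -0.83 ± 0.34 with Dicretin (adjusted p = 0.0604, edgeR), -0.82 ± 0.34 with Semaglutide (adjusted p = 0.186) and -0.93 ± 0.34 with calorie restriction (adjusted p = 0.102). Leaving out saline 78 gave -1.04 with Dicretin (adjusted p = 0.0219, edgeR), and leaving out all 3 of those libraries -0.81 (adjusted p = 0.067). The Dicretin value of Col1a2 also passed without Dicretin 14 (-0.98, adjusted p = 0.042, edgeR), without Dicretin 23 (-1.12, adjusted p = 0.0202), with upper quartile factors (adjusted p = 0.0348), with DESeq2 (adjusted p = 0.0475) and with limma-voom (adjusted p = 0.0464). With calorie restriction it had -1.14 without saline 78 (adjusted p = 0.0533, edgeR) and passed without the 3 libraries (-1.12, adjusted p = 0.0392) and with only the 2 groups compared (-0.92, adjusted p = 0.0342). With Semaglutide it had -1.03 without saline 78 (adjusted p = 0.0946, edgeR) and -1.09 without the 3 libraries (adjusted p = 0.0802).

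Col3a1 stood at 48.7, 53.7, 29.9 and 16.5 CPM in saline 35, 50, 73 and 78 and at 18.96, 19.3, 5.15 and 8.66 CPM in Dicretin 14, 23, 64 and 65. In Semaglutide 11, 15, 31 and 51 it was at 14.7, 18.6, 22.0 and 13.8 CPM, and in calorie restriction 7, 8, 52 and 79 at 18.6, 18.9, 23.1 and 16.2 CPM. In saline, 3 libraries lay above all 12 treated libraries, and saline 78 lay within their range. With Dicretin Col3a1 fell by 1.51 ± 0.37 on the log2 scale (95% interval -2.28 to -0.74, adjusted p = 0.00362, edgeR), to a fitted 0.351 of the saline level. The call held in each of 18 alternatives, with values from -1.75 to -1.24. Semaglutide gave -1.11 ± 0.36 (adjusted p = 0.0954) and calorie restriction -0.96 ± 0.36 (adjusted p = 0.114). Without saline 78 these 2 values were -1.35 (adjusted p = 0.0325, edgeR) and -1.20 (adjusted p = 0.0467), both past the threshold. Without saline 78, Semaglutide 15 and Dicretin 64 together, Col3a1 was lower than saline in all 3 groups, at -1.47 with Dicretin (adjusted p = 0.00183, edgeR), -1.38 with Semaglutide (adjusted p = 0.0196) and -1.18 with calorie restriction (adjusted p = 0.0201). The RefSeq promoter window of Col3a1, the 250 bases before its start on the plus strand at chr1:45311288-45311537 (GRCm38.p6), is shown because Col3a1 had the largest fall among the members that passed with Dicretin and because its window alone, of the 7 searched, holds a TATAAA, in capitals, 117 bases before the start. TATAAA was found on either strand in 12.4% of 32851 windows of the same length.
Col3a1: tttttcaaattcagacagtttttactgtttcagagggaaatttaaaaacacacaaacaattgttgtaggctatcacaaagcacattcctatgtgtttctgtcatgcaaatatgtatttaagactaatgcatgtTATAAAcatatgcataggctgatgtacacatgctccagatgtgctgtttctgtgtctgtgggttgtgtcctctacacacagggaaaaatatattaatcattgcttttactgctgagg
An annotated microRNA gene, Gm47302, shares exon bases with Col3a1 (chromosome 1, 45311538 to 45349706) on the same strand, and how reads there were assigned is not known.

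Col4a1 encodes a chain of type IV collagen, the network-forming collagen of basement membranes. It stood at 38.4, 29.7, 21.0 and 13.4 CPM in saline 35, 50, 73 and 78 and at 22.4, 12.4, 8.94 and 8.66 CPM in Dicretin 14, 23, 64 and 65. Semaglutide 11, 15, 31 and 51 held 8.70, 13.3, 10.8 and 15.6 CPM, and the calorie restriction libraries lay close together at 14.9, 14.0, 15.9 and 14.6 CPM. In saline, 3 libraries were above all Semaglutide and calorie restriction libraries, and Dicretin 14 was above 2 of the saline libraries. Col4a1 fell by 0.96 ± 0.30 on the log2 scale with Dicretin (adjusted p = 0.0192, edgeR). Semaglutide gave -1.09 ± 0.31 (adjusted p = 0.0516) and calorie restriction -0.79 ± 0.30 (adjusted p = 0.12). The Dicretin call was lost without saline 35 (-0.69, adjusted p = 0.099), saline 50 (adjusted p = 0.0566), Dicretin 23 (adjusted p = 0.0509), Dicretin 64 (adjusted p = 0.0615) or Dicretin 65 (adjusted p = 0.0581), while the Semaglutide value passed without saline 78 (-1.30, adjusted p = 0.017, edgeR) and without Semaglutide 51 (-1.23, adjusted p = 0.0488). Col4a1 (chromosome 8, 11198423 to 11312826, minus strand) shares exon bases with Col4a2, its partner chain on the opposite strand, and the counting is not stated to use strand, so their reads cannot be told apart there. Col4a2 itself had a log2 fold change of -0.47 ± 0.35 with Dicretin (adjusted p = 0.315), -0.74 ± 0.36 with Semaglutide (adjusted p = 0.271) and -0.34 ± 0.35 with calorie restriction (adjusted p = 0.613).

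The proteoglycans divided, with Bgn lower after Dicretin and no call for Dcn or Lum in any pair of groups. Bgn encodes biglycan, a matrix proteoglycan that binds collagen and growth factors. It was at 122, 119, 97.8 and 66.7 CPM in saline 35, 50, 73 and 78 and at 80.3, 58.5, 48.3 and 51.0 CPM in Dicretin 14, 23, 64 and 65. Semaglutide 11, 15, 31 and 51 had 43.5, 84.98, 63.3 and 86.6 CPM, and calorie restriction 7, 8, 52 and 79 had 87.2, 89.2, 89.1 and 89.7 CPM. Apart from saline 78 and Dicretin 14, the saline and Dicretin libraries did not meet, and the 4 calorie restriction libraries were almost equal. Bgn fell by 0.77 ± 0.22 on the log2 scale with Dicretin (adjusted p = 0.01, edgeR), and the call held in each of 18 alternatives with values from -0.95 to -0.66. The values were -0.54 ± 0.22 with Semaglutide (adjusted p = 0.175) and -0.19 ± 0.22 with calorie restriction (adjusted p = 0.643). The RefSeq window of Bgn, 250 bases before its start on the plus strand at chrX:73483351-73483600 (GRCm38.p6), is shown beside that of Col3a1 as the promoter of the other lowered member whose window has no annotated exon. Capitals mark 3 GGGCGG (read here as CCGCCC on the other strand; 2 of them run into each other), which 32.7% of all windows hold on either strand.
Bgn: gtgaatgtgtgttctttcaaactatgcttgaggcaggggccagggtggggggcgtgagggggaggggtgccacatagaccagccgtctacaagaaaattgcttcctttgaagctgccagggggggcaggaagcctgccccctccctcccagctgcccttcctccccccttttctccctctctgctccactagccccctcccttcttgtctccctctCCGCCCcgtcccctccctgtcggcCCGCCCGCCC

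Dcn encodes decorin, which coats collagen fibrils and binds transforming growth factor beta. It was at 139 to 204 CPM in saline, 135 to 199 CPM in Dicretin, 154 to 237 CPM in Semaglutide and 157 to 202 CPM in calorie restriction, with ranges that overlapped throughout. The log2 fold changes from saline were -0.20 ± 0.17 with Dicretin (95% interval -0.55 to 0.15, adjusted p = 0.377, edgeR), -0.01 ± 0.17 with Semaglutide (-0.37 to 0.34, adjusted p = 0.977) and -0.04 ± 0.17 with calorie restriction (-0.40 to 0.31, adjusted p = 0.907). Lum encodes lumican, a keratan sulfate proteoglycan that spaces collagen fibrils. It was at 6.95 to 11.6 CPM in saline, 6.91 to 13.5 CPM in Dicretin, 9.64 to 11.4 CPM in Semaglutide and 5.88 to 11.1 CPM in calorie restriction. Its log2 fold changes were 0.20 ± 0.24 with Dicretin (95% interval -0.30 to 0.70, adjusted p = 0.541, edgeR), 0.29 ± 0.24 with Semaglutide (-0.21 to 0.79, adjusted p = 0.545) and 0.00 ± 0.24 with calorie restriction (-0.50 to 0.50, adjusted p = 0.998). No group stood apart for either gene, and changes within these intervals cannot be told from none.

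Timp1 encodes an inhibitor of matrix metalloproteinases that stellate cells release when activated. It had 68 counts in all, under the filter for the fit. Saline 35, 50, 73 and 78 held 14, 18, 8 and 7 counts (0.787, 1.05, 0.544 and 0.579 CPM) and Dicretin 14, 23, 64 and 65 held 5, 2, 2 and 2 (0.268, 0.127, 0.136 and 0.173 CPM). Semaglutide 11, 15, 31 and 51 held 0, 4, 1 and 1 counts, and calorie restriction 7, 8, 52 and 79 held 1, 0, 1 and 2. Every saline library was above every treated library, saline 78 included, a downward separation also found in 18.5% of the tested genes with Dicretin, 7.75% with Semaglutide and 11.9% with calorie restriction. The pooled rate was 0.238 of that in saline with Dicretin (95% interval 0.111 to 0.466), 0.133 with Semaglutide (0.0465 to 0.312) and 0.0818 with calorie restriction (0.0214 to 0.224). These intervals cover counting error only. The exact two-sided permutation test gave p = 0.0286 in each of the 3 comparisons, the smallest that 4 against 4 allows, and 0.0286 after adjustment over the 3. In edgeR without the filter the log2 fold changes were -1.98 ± 0.77 (adjusted p = 0.0717) with Dicretin, -2.77 ± 0.82 (adjusted p = 0.0781) with Semaglutide and -3.40 ± 0.86 (adjusted p = 0.0203) with calorie restriction. The permutation test and the unfiltered fit were added after the counts had been seen. The separation fixes the permutation p at its smallest value, so that test adds nothing to the separation. Its adjustment over 3 tests is unlike that of the other members, over all genes tested. The RefSeq window of Timp1, 250 bases before its start on the plus strand at chrX:20869916-20870165 (GRCm38.p6), is shown because all 3 treated groups separated from saline for this gene. Capitals mark a CCAAT, which begins 190 bases before the start and reads ATTGG on this strand. They also mark a GGGCGG that begins 8 bases before the start, and 33.8% of all windows hold a CCAAT.
Timp1: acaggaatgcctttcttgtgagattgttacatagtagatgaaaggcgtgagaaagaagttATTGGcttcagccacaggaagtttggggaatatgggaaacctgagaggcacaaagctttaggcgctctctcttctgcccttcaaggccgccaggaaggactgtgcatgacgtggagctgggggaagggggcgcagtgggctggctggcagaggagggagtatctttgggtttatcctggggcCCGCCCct

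Acta2 encodes alpha smooth muscle actin, the usual marker of activated stellate cells and also the main actin of vascular smooth muscle. It stood at 1.74, 2.73, 3.06 and 16.1 CPM in saline 35, 50, 73 and 78 and at 2.14, 0.190, 0.542 and 2.77 CPM in Dicretin 14, 23, 64 and 65. Semaglutide 11, 15, 31 and 51 held 6.38, 2.69, 0.648 and 2.19 CPM, and calorie restriction 7, 8, 52 and 79 held 2.34, 0.0764, 2.51 and 1.07 CPM. Saline 78 was far above the 15 other libraries, which overlapped. The log2 fold changes were -2.06 ± 0.90 with Dicretin (adjusted p = 0.0844, edgeR), -0.97 ± 0.84 with Semaglutide (adjusted p = 0.575) and -1.91 ± 0.88 with calorie restriction (adjusted p = 0.204). Without saline 78 the same comparisons gave -0.84 (adjusted p = 0.442, edgeR), then 0.24 (adjusted p = 0.896), then -0.70 (adjusted p = 0.665), so the size of the values for Dicretin and calorie restriction, and the sign of that for Semaglutide, rested on that library. In saline 78 the smooth muscle genes Myh11, Cnn1 and Actg2 were also high, at 8.35, 3.56 and 3.56 CPM against 1.16 to 2.53, 0.0582 to 0.169 and 0.0562 to 0.174 CPM in its group, and their part in the Acta2 value was not tested. The same library was the lowest of its group for 4 collagens, Bgn, Dcn and Lum.

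A pair of 30-base stretches on the minus strand, before the RefSeq start of Acta2, is shown because they hold CArG boxes, the site of serum response factor in smooth muscle genes, here taken as CC, 6 bases of which at most 1 is G or C, and GG, in capitals. They lie at chr19:34255438-34255467 and chr19:34255388-34255417 (GRCm38.p6), with the boxes beginning 84 and 34 bases before the start. In GENCODE M21 Acta2 runs from 34241090 to 34255590 on chromosome 19, so both stretches, though before the RefSeq start, lie inside its annotated exon. Of all windows 8.59% hold such a box.
Acta2 site farther from the RefSeq start: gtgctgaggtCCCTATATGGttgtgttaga
Acta2 site nearer to the RefSeq start: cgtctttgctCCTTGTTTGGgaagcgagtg
RefSeq windows were matched for 7 of the 10 genes. Among these 7, a GGGCGG was found in 4, a CCAAT in 3, a CArG box in 2, a TATAAA in 1 and the AP-1 motif TGANTCA in 0 (6.75% of all windows hold one). The window of Acta2 overlaps its own GENCODE exon for 217 bases, that of Col1a2 overlaps annotated exons for 127 bases, and that of Col4a1 for all 250. These matches describe the letters in the windows.

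Des encodes desmin, an intermediate filament protein of muscle that quiescent rodent stellate cells also contain. It stood at 5.28, 4.65, 7.42 and 9.59 CPM in saline 35, 50, 73 and 78 and at 3.48, 2.41, 3.997 and 3.90 CPM in Dicretin 14, 23, 64 and 65. In Semaglutide 11, 15, 31 and 51 it was at 6.15, 61.0, 4.80 and 4.57 CPM, and in calorie restriction 7, 8, 52 and 79 at 4.61, 3.74, 4.97 and 4.88 CPM. Every Dicretin library was below every saline library (18.5% of the tested genes separated downward), and Semaglutide 15 was far above all others. Dicretin against saline gave -0.96 ± 0.70 on the log2 scale (adjusted p = 0.303, edgeR). Fitted on these 2 groups alone the value was -0.96 (adjusted p = 0.0185), and without saline 78, Semaglutide 15 and Dicretin 64 together it was -0.81 (adjusted p = 0.0286), both past the threshold. Semaglutide against saline gave 1.51 ± 0.67 (adjusted p = 0.231), and without Semaglutide 15 it was -0.37 (adjusted p = 0.468), so the direction rested on Semaglutide 15. Without that library the Semaglutide mean was 5.17 ± 0.855 CPM (SD, n = 3). In Semaglutide 15 the skeletal muscle genes Acta1, Myh1, Tnnt3, Myh2 and Ckm were at 229, 231, 197, 103 and 77.6 CPM and at most 0.175 CPM in any other library, and their part in the Des value was not tested. Des (chromosome 1, 75360329 to 75368579) shares exon bases with the antisense gene Gm15179, so that without a known strand setting its reads cannot be assigned with certainty.

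**Figure D3:**
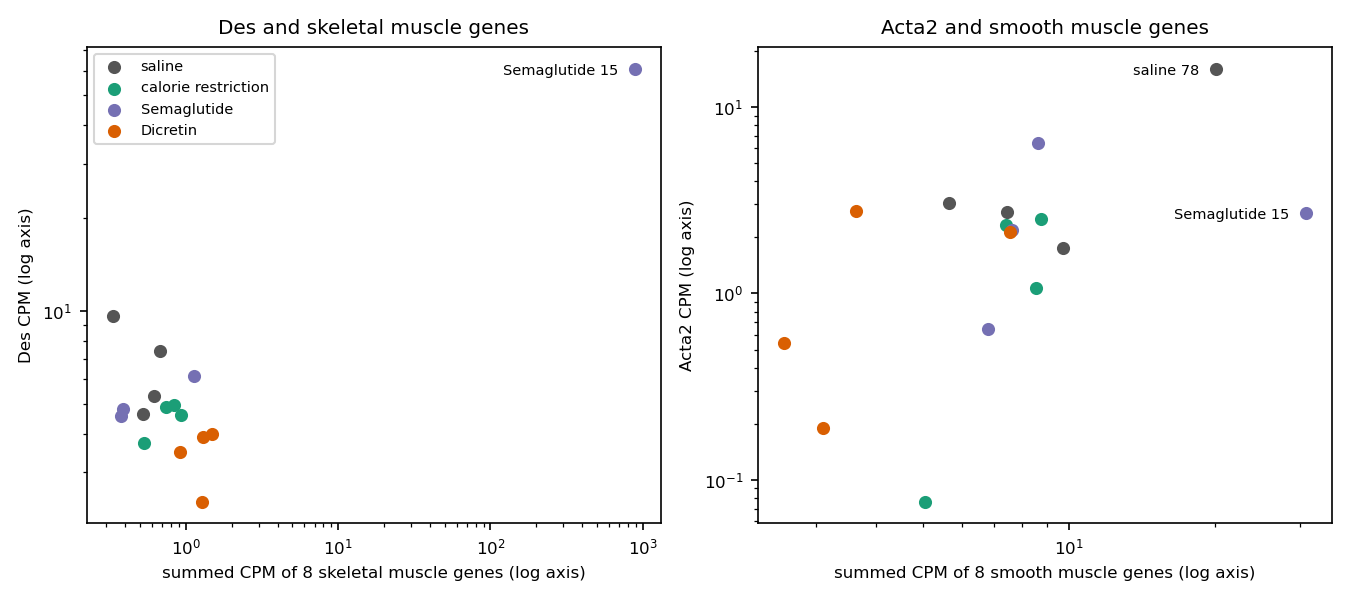
Des CPM against the summed CPM of 8 skeletal muscle genes (left) and Acta2 CPM against the summed CPM of 8 smooth muscle genes (right), 1 point per library, all axes logarithmic. Semaglutide 15 stands alone at the upper right of the left panel (887 and 61.0 CPM) and saline 78 at the top of the right panel (20.1 and 16.1 CPM). Farthest to the right in the right panel is Semaglutide 15, at 30.9 CPM with Acta2 at 2.69 CPM.

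The treated groups were also compared with each other. Dicretin against Semaglutide gave 1 call of 9, Des at -2.47 ± 0.70 on the log2 scale (adjusted p = 0.0134, edgeR), where 32% of all genes passed. The 2 groups did not overlap for Des, as for 14.2% of tested genes in the same direction. It was lost without Semaglutide 15 (-0.59, adjusted p = 0.111, edgeR). Dicretin against calorie restriction gave 0 calls of 9 (31.3% of all genes), with 1 member at an unadjusted p under 0.05 and 1 called by DESeq2 and by limma-voom. That member was Bgn at -0.58 ± 0.22 (adjusted p = 0.0509, edgeR), which passed without Dicretin 14 (-0.75, adjusted p = 0.0121, edgeR), and every Dicretin library was below every calorie restriction library, as for 15.2% of tested genes. Without saline 78, Semaglutide 15 and Dicretin 64 together it was -0.48 (adjusted p = 0.103). Semaglutide against calorie restriction gave 0 of 9 (6.12% of all genes), with 1 member at an unadjusted p under 0.05, Des, and 0 called by DESeq2 or limma-voom. Here too the Bgn values separated with Semaglutide lower (8.13% of tested genes did so), at -0.35 ± 0.22 (adjusted p = 0.339, edgeR). For Col3a1 the difference between Dicretin and Semaglutide was -0.40 with a 95% interval of -1.17 to 0.36, and for Col4a1 it was 0.13 (-0.52 to 0.77). The 95% interval between Dicretin and calorie restriction was -1.32 to 0.21 for Col3a1 and -0.81 to 0.47 for Col4a1. All 4 intervals include 0 and reach to falls and rises of unequal size, and no difference between these treatments was detected for these genes.

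The collagens moved together from library to library. Over the 16 libraries the correlation of log2 CPM was 0.966 between Col1a1 and Col1a2, 0.929 between Col1a2 and Col3a1 and 0.885 between Col4a1 and Bgn. For deviations from the group means the same pairs had 0.962, 0.962 and 0.907, so the shared movement of these pairs was present within groups. It was weaker between Col4a1 and the fibrillar collagens, at 0.683, 0.712 and 0.752 with Col1a1, Col1a2 and Col3a1. Leaving out saline 78 gave 0.576, 0.599 and 0.640. Acta2 ran apart from the fibrillar collagens within groups, at -0.539 with Col1a1 and -0.498 with Col1a2. Without saline 78 these were -0.384 and -0.306, and Acta2 then had 0.673 with Lum and 0.567 with Dcn, against 0.387 and 0.100 with it. Dcn had correlations between -0.019 and 0.227 with the 4 collagens over the 16 libraries, and between -0.167 and 0.029 for deviations from the group means. With saline 78 left out, the deviations of Dcn had -0.562, -0.563, -0.385 and -0.444 with Col1a1, Col1a2, Col3a1 and Col4a1. The median over the 36 pairs of tested members was 0.12. These values describe libraries that share group, depth and tissue composition. By within-library ratios of CPM per kilobase, Col1a1 over Col1a2 had a mean log2 of -0.49 ± 0.56 (SD, n = 4) in saline and -1.44 ± 0.83, -1.65 ± 0.80 and -1.24 ± 0.22 in Dicretin, Semaglutide and calorie restriction. Col1a1 over Col3a1 was -1.51 ± 0.39 in saline and -2.27 ± 0.22 in calorie restriction, which did not overlap (exact permutation p = 0.0286, adjusted p = 0.193). Of the 9 ratio tests (3 ratios in 3 groups) 0 passed after adjustment, 1 had an unadjusted exact p under 0.05, and the smallest p that 4 against 4 allows is 0.0286.

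By the rule for likeness, the genes whose log2 CPM over the 16 libraries followed the mean of the 9 standardised members most closely were Synj2 (r = 0.865), Col6a1 (0.845), Clmp (0.844), Mcm5 (0.841), Ttc3 (0.839), Fstl1 (0.833), Phkb (0.832) and Gbe1 (0.831). For deviations from the group means they were Col6a1 (0.935), Secisbp2l (0.901), Fstl1 (0.899), Prkci (0.874), Lrba (0.867), Mmgt1 (0.864), Plekha1 (0.855) and Mttp (0.850). Col6a1, a chain of the microfibril-forming type VI collagen, and the secreted glycoprotein gene Fstl1 were in both. The libraries with the lowest and highest mean of the standardised members were Dicretin 64 and saline 50.

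The other collagens gave a wider picture of the matrix. Of 16 further collagen genes tested, 6 fell and 2 rose with Dicretin (median log2 fold change -0.88), 0 passed with Semaglutide (median -0.66) and 1 rose with calorie restriction (median -0.32). Over all genes tested 19.2% were lower and 17.5% higher with Dicretin, 4.18% passed with Semaglutide and 7.53% with calorie restriction. The same shares apply to the lists that follow. Counting the 4 members, 17 of 20 collagens had a value below 0 with Dicretin, 18 of 20 with Semaglutide and 15 of 20 with calorie restriction, all against the same saline libraries. Col27a1, a fibrillar collagen, fell by 4.29 ± 0.49 on the log2 scale with Dicretin (adjusted p = 4e-06, edgeR), from 12.5 to 35.6 CPM over saline to 0.813 to 2.79 CPM. It rose by 1.43 ± 0.40 with calorie restriction (41.2 to 131 CPM, adjusted p = 0.0381), a call lost in 9 of 18 alternatives. Col5a3, a chain of type V collagen, fell by 2.18 ± 0.30 with Dicretin (adjusted p = 1.78e-05, edgeR) and Col18a1, the precursor of endostatin, by 0.97 ± 0.22 (adjusted p = 0.00246). Col18a1 is also made by hepatocytes. Col12a1, which decorates collagen fibrils, rose by 3.21 ± 0.49 with Dicretin (adjusted p = 5.93e-05, edgeR), at 39.9, 10.7, 9.35 and 7.01 CPM in Dicretin 14, 23, 64 and 65 against 1.07 to 2.91 CPM in saline. Without Dicretin 14 its value was 2.33. Over the alternatives the number of these collagens lower with Dicretin ran from 4 to 11, with 10 without Dicretin 14 and 4 without Dicretin 23, 64 or 65 or saline 35 or 50.

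**Figure D4:**
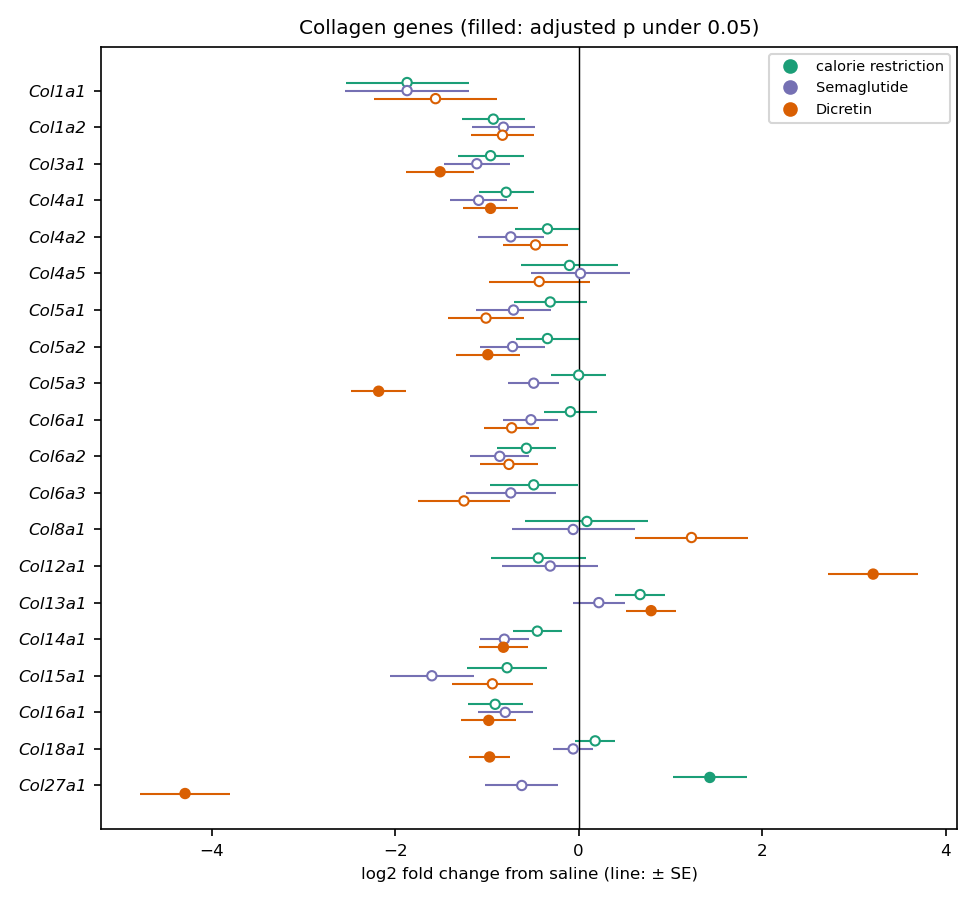
Fitted log2 fold change from saline (x axis, line ± SE) of the 20 tested collagen genes in the 3 treated groups; filled points passed at an adjusted p under 0.05. With Dicretin Col27a1 lies farthest to the left (-4.29) and Col12a1 farthest to the right (3.21), and in the other groups 1 point is filled, Col27a1 in calorie restriction.

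Among 34 other matrix proteins tested, 8 fell and 1 rose with Dicretin (median -0.53), where 19.2% of all genes were lower and 17.5% higher. Leaving out 1 library gave 4 lower without saline 73, 5 without saline 50 or Dicretin 64 and 13 without Dicretin 14. Tgfbi, which encodes a matrix protein induced by transforming growth factor beta, fell by 0.80 ± 0.15 on the log2 scale (adjusted p = 0.00052, edgeR). Vtn, the hepatocyte gene for vitronectin, rose by 0.68 ± 0.15 (adjusted p = 0.00174). Fmod, which encodes the collagen-binding proteoglycan fibromodulin, fell by 1.84 ± 0.42 with Dicretin (adjusted p = 0.0023) and by 2.12 ± 0.43 with Semaglutide (adjusted p = 0.00787), and was the 1 gene of the list to pass with Semaglutide. The Semaglutide call was lost without saline 78, Semaglutide 15 and Dicretin 64 together (adjusted p = 0.0581). With calorie restriction 0 of the 34 passed. Of 18 genes of collagen processing, 3 rose and 3 fell with Dicretin, close to the shares over all genes tested. Among those that rose were the prolyl hydroxylase gene P3h1 at 0.77 ± 0.19 (adjusted p = 0.00445, edgeR) and the lysyl hydroxylase gene Plod3 at 0.54 ± 0.14 (adjusted p = 0.00546). The 3 lower genes, named after their values were seen, were the collagen chaperone gene Serpinh1 (-0.68, adjusted p = 0.0432), the procollagen N-proteinase gene Adamts2 (-0.93, adjusted p = 0.0265) and the collagen uptake receptor gene Mrc2 (-1.44, adjusted p = 0.0275). Without Dicretin 64, Dicretin 65, saline 35 or saline 50, each left out alone, 0 of the list were lower, and with limma-voom 1 was. With calorie restriction Bmp1, which encodes the procollagen C-proteinase, rose (0.66 ± 0.17, adjusted p = 0.0242), as did the cross-linking enzyme gene Loxl4 (1.53 ± 0.44, adjusted p = 0.0392), calls lost in 7 and 8 of 18 alternatives.

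Of 14 matrix proteases and inhibitors besides Timp1, 1 rose and 4 fell with Dicretin, 1 rose with Semaglutide, and 2 rose and 1 fell with calorie restriction. The membrane-type metalloproteinase gene Mmp14 rose with calorie restriction (0.87 ± 0.16 on the log2 scale, adjusted p = 0.00309, edgeR) and with Dicretin (0.56 ± 0.16, adjusted p = 0.0115), and its relative Mmp15 fell with Dicretin (-1.27 ± 0.27, adjusted p = 0.00135). Serpine2, a serine protease inhibitor gene, rose with Semaglutide (1.28 ± 0.35, adjusted p = 0.0448) and with calorie restriction (1.45 ± 0.35, adjusted p = 0.0148), calls lost in 9 and 4 of 18 alternatives. The rise of Mmp14 with Dicretin was lost without saline 78, Semaglutide 15 and Dicretin 64 together (adjusted p = 0.0625).

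In the list of transforming growth factor beta and platelet-derived growth factor signalling, 4 of 23 tested genes rose and 5 fell with Dicretin, 1 rose and 1 fell with Semaglutide, and 2 rose and 1 fell with calorie restriction. The Dicretin counts were close to the shares over all genes tested, 17.5% higher and 19.2% lower. The 5 lower with Dicretin became 3 without Dicretin 65, saline 35 or saline 50. Skil, which encodes a repressor of SMAD signalling, stood at 8.49, 7.68, 6.12 and 7.69 CPM in saline and at 18.7, 15.1, 15.9 and 19.7 CPM in Dicretin. It rose by 1.21 ± 0.19 with Dicretin (adjusted p = 8.83e-05, edgeR) and by 1.16 ± 0.19 with calorie restriction (adjusted p = 0.00119), and had -0.02 ± 0.19 with Semaglutide (adjusted p = 0.967). Ccn1, which encodes a matrix-associated signalling protein, fell by 1.46 ± 0.25 with Dicretin (adjusted p = 0.000167). Tgfbr2, the type II receptor gene, fell with Semaglutide (-0.94 ± 0.23, adjusted p = 0.028) and with calorie restriction (-0.93 ± 0.23, adjusted p = 0.0198), and the decoy receptor gene Bambi rose with both (0.88 ± 0.22, adjusted p = 0.0324, and 0.78 ± 0.22, adjusted p = 0.0401). The Tgfbr2 calls were lost in 5 and 4 of 18 alternatives and the Bambi calls in 9 and 10.

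Of 19 tested stellate cell markers, 9 fell and 0 rose with Dicretin (median -0.63), 0 passed with Semaglutide (median -0.18) and 1 rose with calorie restriction (median 0.01). Cygb, the gene of the stellate cell globin, fell by 0.84 ± 0.18 on the log2 scale (adjusted p = 0.00161, edgeR) and Nes, which encodes the intermediate filament nestin, by 1.55 ± 0.37 (adjusted p = 0.00332). Pdgfrb, which encodes the receptor for platelet-derived growth factor, and the transcription factor genes Lhx2 and Tcf21 were among the others lower. Lrat did not pass in any of the 3 comparisons with saline (-0.22 ± 0.25 with Dicretin, adjusted p = 0.519). With calorie restriction the chemokine gene Cxcl12 rose (0.85 ± 0.17, adjusted p = 0.00413). Without saline 78, Semaglutide 15 and Dicretin 64 together 8 of 19 were lower with Dicretin, and without saline 35 alone 5 were. The highest count over the alternatives was 13, without Semaglutide 11 and Dicretin 14 together.

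In a list of mostly contractile and cytoskeletal genes, 15 were tested besides Acta2 and Des. Of these, 5 fell with Dicretin, 2 with Semaglutide and 1 with calorie restriction, and 0 rose in any. The 5 lower with Dicretin became 3 without Dicretin 64, without saline 50 or without the low-count filter, and 8 without Semaglutide 11 and Dicretin 14 together. Lgals1, the 1 gene lower with calorie restriction, encodes galectin-1, a lectin and not a contractile or cytoskeletal protein. Its values were 126, 104, 114 and 78.1 CPM in saline 35, 50, 73 and 78. The highest of the 12 treated libraries was at 33.8 CPM. It fell with Dicretin (-2.30 ± 0.28, adjusted p = 5.82e-06, edgeR), Semaglutide (-2.21 ± 0.28, adjusted p = 0.000208) and calorie restriction (-2.22 ± 0.28, adjusted p = 0.0001), in each of 18 alternatives in all 3. Mylk, the myosin light chain kinase gene, fell by 2.36 ± 0.25 with Dicretin (adjusted p = 1.13e-06), and the tropomyosin gene Tpm2 also fell (-3.1 ± 0.51, adjusted p = 0.000195). Vim, the vimentin gene, fell by 0.86 ± 0.17 with Semaglutide (adjusted p = 0.00607). Tpm2 was at 135 CPM in Semaglutide 15 and 19.1 to 38.8 CPM in the rest of that group.

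**Figure D5:**
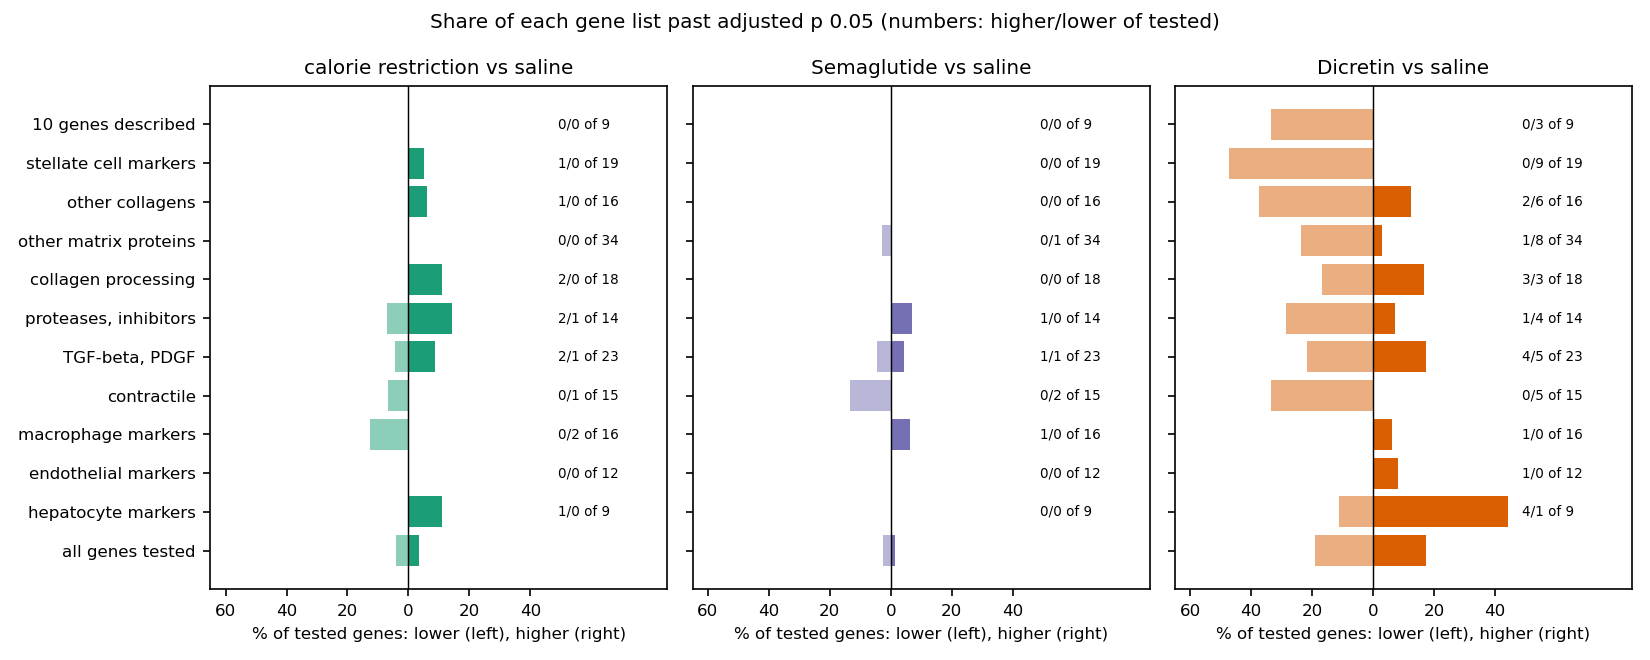
Share of the tested genes of each list that passed at an adjusted p under 0.05, higher to the right and lower (paler) to the left, in each comparison with saline; numbers give higher and lower calls of those tested. With Dicretin the stellate cell list has 9 of 19 lower and 0 higher, while over all genes tested 17.5% were higher and 19.2% lower.

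Markers of other cell types that share matrix genes were read beside these lists. Of 6 portal fibroblast markers tested 1 fell with Dicretin, the ectonucleotidase gene Entpd2 (-1.55 ± 0.47, adjusted p = 0.0153, edgeR), and 0 passed in the other groups. The summed CPM of the 10 listed was 12.6 to 21.8 in saline, 11.7 to 20.4 in Dicretin, 10.2 to 22.2 in Semaglutide and 9.93 to 16.2 in calorie restriction. Of 4 smooth muscle and 4 mesothelial markers tested 0 passed in any comparison with saline, and the summed CPM of the 8 smooth muscle genes was 5.65 to 20.1 in saline, 2.58 to 7.55 in Dicretin, 6.80 to 30.9 in Semaglutide, where Semaglutide 15 was highest, and 5.04 to 8.74 in calorie restriction. Of 12 sinusoidal endothelial markers 1 rose with Dicretin, Lyve1 (1.26 ± 0.29, adjusted p = 0.00213), and 0 passed in the others. Of 16 macrophage markers 1 rose with Dicretin and with Semaglutide and 2 fell with calorie restriction, with a summed CPM of 301 to 448 in saline, 291 to 763 in Dicretin, 150 to 477 in Semaglutide and 104 to 345 in calorie restriction. Of 6 bile duct markers 1 fell with Dicretin and 1 rose with calorie restriction. The summed CPM of the 9 hepatocyte markers was 102400 to 125700 in saline, 91410 to 107900 in Dicretin, 130400 to 160600 in Semaglutide and 136400 to 155200 in calorie restriction. Of these 9 genes 4 rose and 1 fell with Dicretin, 0 passed with Semaglutide and 1 rose with calorie restriction. Of 2 adipocyte markers tested 1 fell in each comparison with saline, and the 1 skeletal muscle marker tested passed in none. The part of these cell types in the member values was not tested.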

How the data were processed

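Poly(A) RNA of liver was sequenced from directional libraries, per the labels' protocols, and raw read counts per gene were deposited, with no normalization. Per the submitters' processing notes the tools were TopHat2 2.1.1 and featureCounts, with build mm10. The strand setting and annotation are not given in the sources used here. Symbols for 45229 identifiers, positions, lengths and overlaps came from GENCODE M21 (GRCm38), and promoter windows from RefSeq (GRCm38.p6).

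The model was edgeR 4.0.16 under R 4.3.3 (filterByExpr, TMM, robust glmQLFit, glmQLFTest), fitted once to all 16 libraries with 1 mean per group and no covariate. Of 46078 genes, 22577 had no count and 12910 were tested, with adjustment within each comparison. The common biological coefficient of variation was 0.24. On counts simulated for Dicretin against saline over 12910 genes, 52 of 100 genes changed 2-fold and 95 of 100 changed 4-fold were recovered, and 4 unchanged genes were called. Alternatives used DESeq2 1.42.0, limma-voom 3.58.1, other scaling and filters, and libraries left out.

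Named genes were all 10 members and, from each list, up to 4 with the smallest p against saline; Col4a2, Lrat, Pdgfrb, Lhx2, Tcf21 and the genes of other tissues in single libraries were named after their values were seen. The members and lists were chosen with earlier results of these data known. Some genes of the lists are not reported here by name. Pancreatic genes were listed after their values were seen. Likeness used log2 of CPM plus 0.5.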

Additional observations from a re-analysis of the deposited data

Results flagged for a closer look

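Each of the 10 genes was examined in each of the 4 groups, 40 groups of 4 libraries in all, for a library far from the others, by the gap to its nearest neighbour as a share of the group's range. A share above Dixon's 95% critical value marks a library, which chance does in about 1 of 20 groups, and 2 of the 40 were marked. Acta2 was at 16.05 CPM in saline 78, against 1.742 to 3.062 CPM in the other saline libraries (share 0.908). Des was at 60.96 CPM in Semaglutide 15, against 4.57 to 6.15 CPM in the other Semaglutide libraries (share 0.972).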

How the results depend on the processing

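Of 966 member values recomputed under alternatives, 923 kept their side of the threshold, 9 were lost, 34 were gained and 0 reversed among those called. Values without a call could change sign, as those with Semaglutide did for Des without Semaglutide 15 and for Acta2 without saline 78. For Dicretin against saline the 3 calls became 5 with limma-voom, and 4 with upper quartile factors, DESeq2 or only the 2 groups compared. They became 4 without saline 78, Semaglutide 15 and Dicretin 64 together, and 2 to 5 with single libraries left out. For Semaglutide against saline the count of 0 became 1 with upper quartile factors, 2 with DESeq2, 1 without Semaglutide 11 and Dicretin 14 together, 2 without saline 78, Semaglutide 15 and Dicretin 64 together, and 0 to 2 with single libraries left out. For calorie restriction against saline it became 1 without the low-count filter, where the call was Timp1, a gene that the main fit did not test. The count was 1 with only the 2 groups compared and 1 without Semaglutide 11 and Dicretin 14. It was 3 without saline 78, Semaglutide 15 and Dicretin 64, and 0 to 1 with single libraries left out. For Dicretin against calorie restriction the count of 0 became 1 with upper quartile factors, DESeq2, limma-voom, only the 2 groups compared or Semaglutide 11 and Dicretin 14 left out, and 0 to 1 with single libraries left out. For Semaglutide against calorie restriction it was 0 to 1 with single libraries left out. For Dicretin against Semaglutide the 1 call became 0 with DESeq2, limma-voom, no low-count filter or without saline 78, Semaglutide 15 and Dicretin 64. Whether DESeq2 gave Des an adjusted p is not shown, so its 0 may be a missing value and not a failed test. The count became 2 without Semaglutide 11 and Dicretin 14, and 0 to 1 with single libraries left out. For any difference among the 4 groups the 5 calls became 3 with limma-voom and 3 without the low-count filter, and 1 to 6 with single libraries left out; without saline 35 or saline 50 there was 1. The causes were not tested, and the shares of all genes called under these alternatives are not given. The setting without the 3 libraries was chosen after seeing the data. No paired analysis was possible because the groups share no replicate numbers. With 4 libraries per group, 2-fold changes simulated in randomly drawn genes for Dicretin against saline were recovered about as often as missed. The recovery of the members and of the other comparisons was not simulated. The SE on the log2 scale with Dicretin was 0.67 for Col1a1 and 0.90 for Acta2, large beside a 2-fold change. Members without a call may therefore still differ, and the low counts of Timp1 and Acta2 limit their precision.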
